A study of Arabidopsis thaliana with 4 samples.

Results

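The genes described here are 10 genes of nitrate uptake and nitrogen assimilation, chosen by name, with earlier results of these data known: NRT1.1, NRT2.1, NIA1, NIA2, NIR1, GLN2, GLN1-1, GLN1-3, GLU1 and GDH1. All 10 were listed in all 4 libraries, among 24252 genes listed in any of them. The study measured mRNA in whole 7-day-old Arabidopsis thaliana seedlings, 2 libraries labelled fer-4 (genotype given as FERONIA-/-) and 2 labelled WT (genotype given as wild type), to compare transcript levels in the mutant with those in wild type. FERONIA is a receptor kinase of the cell surface that binds RALF peptides and senses the cell wall. Both groups were of the Col-0 ecotype, were raised on vertical plates of diluted Murashige and Skoog medium, which supplies nitrate and ammonium, in 16 h light and 8 h dark, and had received no treatment. The labels do not say how the mutant allele was made, nor whether the replicates grew on separate plates or days. The p-values therefore rest on a spread between libraries that could be technical.

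Plants take nitrate up through transporters of the NRT1 (NPF) and NRT2 families in the root. Nitrate reductase (NIA1, NIA2) turns it into nitrite in the cytosol, and nitrite reductase (NIR1) turns nitrite into ammonium in the plastid. Glutamine synthetase (GLN) and glutamate synthase (GLU) then fix ammonium into amino acids, while glutamate dehydrogenase (GDH) in the mitochondrion mainly releases it from glutamate.

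Of the 10 genes, 1 rose and 2 fell in fer-4, against 23.3% of all 19183 tested genes called in either direction, 14.3% higher and 9.00% lower. GDH1, which releases ammonium from glutamate, rose 1.69-fold, NIR1 fell to 0.719 of its WT mean and the high-affinity nitrate transporter gene NRT2.1 fell to 0.304 of its WT mean. The other 7, with the nitrate reductases, the plastid glutamine synthetase GLN2 and the ferredoxin-dependent glutamate synthase GLU1 among them, did not pass. The share of the 10 called lay near the background share, and their median log2 difference of 0.03 lay near the 0.0053 of all tested genes. Among the 10, 7 had genotypes with no overlap, against 66.1% of all tested genes. Levels are in FPKM (fragments scaled to transcript length and library depth), differences are log2(FPKM + 1) in fer-4 minus WT, and calls are by limma at a Benjamini-Hochberg adjusted p under 0.05 over all tested genes.

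The libraries held an estimated 19.3 to 21.0 M fragments each, and their FPKM summed to between 680752 and 689279. FER, the mutated gene, measured 60.6 and 62.1 FPKM in fer-4 and 89.0 and 91.9 FPKM in WT, so its transcript was lower but present in the fer-4 libraries (limma, adjusted p = 0.00638, and 0.0593 without WT replicate 2). Calls numbered 2743 higher and 1726 lower, 61.4% higher; with quantile normalization they numbered 2305 higher and 2333 lower, 49.7% higher. In 141 genes each fer-4 library had 5 FPKM or more and WT replicate 1 had less than 5% of the fer-4 mean. The median of WT replicate 2 over these genes was also below 5% of it, so most were low in both WT libraries, although WT replicate 1 listed no value for 67 of them and WT replicate 2 for 9. A stricter filter in the other direction, 5 FPKM or more in each WT library and below 5% of their mean in each fer-4 library, held for 17 genes. On the WT side the 141 were picked by replicate 1 alone. So 141 and 17 are not like counts, and neither are 67 and 9. Of the members and the list genes used here, 0 were in either set.

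**Figure D1:**
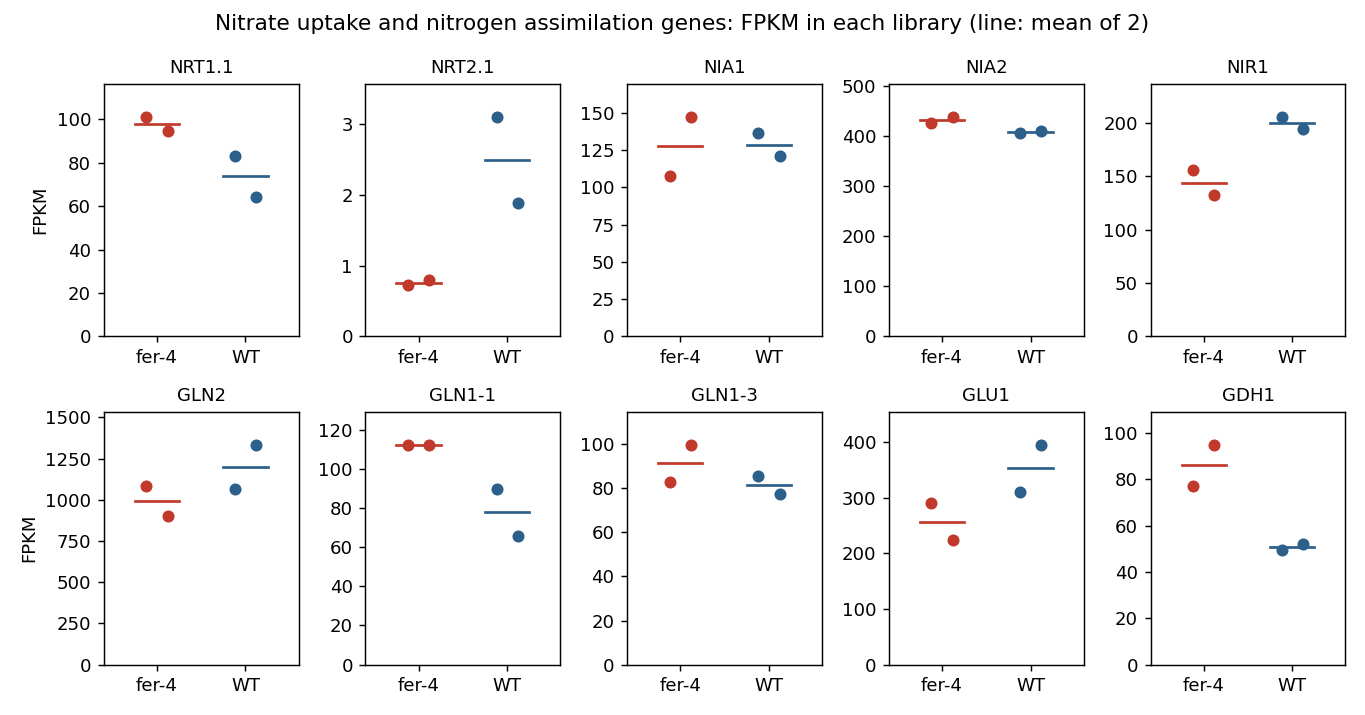
FPKM (vertical axes, from 0, a scale for each gene) of the 10 genes in the 2 fer-4 and 2 WT libraries; points are libraries and lines are means. NRT2.1 and NIR1 lie lower in both fer-4 libraries than in either WT library and GDH1 lies higher, while the groups of NIA1, GLN2 and GLN1-3 overlap.

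NRT1.1 (AT1G12110, named NPF6.3 in the files, chromosome 1, 4105233 to 4109545, plus strand) encodes a plasma membrane transporter that also senses nitrate. It measured 101 and 94.7 FPKM in fer-4 and 83.3 and 64.4 FPKM in WT. Both fer-4 libraries lay above both WT libraries, but the log2 difference of 0.41 ± 0.14 (SE) did not pass (limma, adjusted p = 0.0778). Without WT replicate 1, the higher of the WT libraries, it passed at 0.0489.

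NRT2.1 (AT1G08090, chromosome 1, 2524076 to 2526164, plus strand), the main high-affinity nitrate transporter of the root, had the lowest level of the 10. It measured 0.725 and 0.798 FPKM in fer-4 and 3.11 and 1.89 FPKM in WT. The fer-4 libraries were close to each other and both lay below the WT range, while the WT libraries differed. With both fer-4 libraries under 1 FPKM, NRT2.1 reached the mean of 1 FPKM required for testing only through WT, where it was high. NRT2.1 fell by 0.97 on the log2 scale (SE 0.21, limma, adjusted p = 0.0236), and its WT mean was 3.28 times its fer-4 mean. By the depth estimate these values stood for about 32 and 33 fragments in fer-4 and about 130 and 80 in WT, so counting error is larger here than in the other 9 genes, each of which had an estimated 1820 fragments or more in every library. The call ended without WT replicate 1 (log2 difference -0.72, adjusted p = 0.101).

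The tested genes nearest to NRT2.1 over the 4 log2 values were AT3G06630, AT4G23515 and AT4G22410, at Euclidean distances of 0.21, 0.27 and 0.32. AT3G06630, the closest, measured 0.894 and 0.791 FPKM in fer-4 and 2.84 and 2.15 FPKM in WT. This likeness rests on 4 libraries and is one of level as well as of difference.

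The nitrate reductase genes did not pass. NIA1 (AT1G77760, chromosome 1, 29235803 to 29239445, minus strand) measured 108 and 148 FPKM in fer-4 and 137 and 121 FPKM in WT. The fer-4 libraries enclosed the WT range, and the log2 difference was -0.03 with a 95% interval of -0.42 to 0.37 (limma, adjusted p = 0.925). NIA2 (AT1G37130, chromosome 1, 14158527 to 14161938, plus strand), which gives most of the nitrate reductase activity, measured 425 and 438 FPKM in fer-4 and 406 and 409 FPKM in WT. Its groups did not overlap, but the log2 difference was 0.08 with a 95% interval of -0.18 to 0.34 (limma, adjusted p = 0.615). Together both genes summed to 559 ± 37.6 FPKM in fer-4 and 536 ± 8.80 FPKM in WT (SD, n = 2 each).

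NIR1 (AT2G15620, chromosome 2, 6810476 to 6812939, plus strand), whose product uses ferredoxin and siroheme to reduce nitrite, measured 155 and 132 FPKM in fer-4 and 206 and 194 FPKM in WT. Both fer-4 libraries lay below both WT libraries. NIR1 fell by 0.48 on the log2 scale (SE 0.11, limma, adjusted p = 0.0296, 0.0163 to 0.146 over the alternatives). The ratio of NIR1 to the summed nitrate reductases, in which a scaling factor common to a library cancels, was 0.292 and 0.226 in fer-4 and 0.379 and 0.366 in WT. The groups did not overlap, and the exact two-sided permutation p was 0.333, the smallest that 2 libraries against 2 can give. The NIR1 call ended without fer-4 replicate 2 (-0.36, adjusted p = 0.129), without WT replicate 1 (-0.44, 0.146) and without WT replicate 2 (-0.52, 0.117), and with no filter on low values (0.0532).

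GLN2 (AT5G35630, chromosome 5, 13830429 to 13833542, plus strand), the glutamine synthetase of the plastid that refixes ammonium from photorespiration, had the highest level of the 10. It measured 1084 and 903 FPKM in fer-4 and 1063 and 1333 FPKM in WT. The groups overlapped and the log2 difference of -0.27 had a 95% interval of -0.71 to 0.18 (limma, adjusted p = 0.337). GLU1 (AT5G04140, chromosome 5, 1129852 to 1138442, plus strand), the main glutamate synthase of leaves, measured 290 and 223 FPKM in fer-4 and 310 and 395 FPKM in WT. Its groups did not overlap, but the log2 difference of -0.46 ± 0.18 (SE) did not pass (limma, adjusted p = 0.118). GLU1 overlaps BHLH101 on the other strand, which measured at most 2.95 FPKM in any library.

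Both are leaf genes of the chloroplast, and leaf markers lay on the same side: all 8 differences were negative, with a median of -0.32. Summed, the 8 markers measured 20218 and 15821 FPKM in fer-4 and 21334 and 24164 FPKM in WT. By limma 0 of the 8 passed, against 23.3% of all tested genes. An unadjusted p under 0.05 was held by 2 of the 8 and by 7210 of all 19183 tested genes. Of 9 root markers, EXPA7 and TIP2-3 rose and 7 did not pass, near the 23.3% of all genes called. Their differences were positive in 6 of the 9, with a median of 0.07 and a lowest value of -0.26. The 9 summed to 264 and 260 FPKM in fer-4 and 258 and 224 FPKM in WT. In RNA from whole seedlings, fewer cells of an organ cannot be told apart from less RNA per cell. What part the leaf markers have in the values of GLN2 and GLU1 was not tested.

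The cytosolic glutamine synthetase genes GLN1-1 and GLN1-3 encode enzymes known mainly from roots. GLN1-1 (AT5G37600, chromosome 5, 14933336 to 14935841, minus strand) measured 112 and 112 FPKM in fer-4 and 89.8 and 65.8 FPKM in WT. Both fer-4 libraries lay above both WT libraries, and the log2 difference of 0.54 ± 0.15 (SE) lay just outside the threshold (limma, adjusted p = 0.051). Small changes of setting moved it across: it passed with each library scaled to the same sum (adjusted p = 0.0492), with only genes of a mean of at least 5 FPKM (0.0493) and without WT replicate 1 (0.0253). GLN1-3 (AT3G17820, chromosome 3, 6097414 to 6099595, plus strand) measured 83.0 and 99.7 FPKM in fer-4 and 85.5 and 77.2 FPKM in WT, and its groups overlapped (log2 difference 0.16, 95% interval -0.13 to 0.45, limma, adjusted p = 0.369).

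GDH1 (AT5G18170, chromosome 5, 6006039 to 6008472, plus strand) measured 77.1 and 94.8 FPKM in fer-4 and 49.6 and 52.1 FPKM in WT. Both fer-4 libraries lay well above the WT range, which was narrow. GDH1 rose by 0.74 on the log2 scale (SE 0.12, limma, adjusted p = 0.00839). Its call ended without WT replicate 1 (adjusted p = 0.0692) and without WT replicate 2 (0.0629). It overlaps the gene AT5G18180 on the other strand, which stayed under 1 FPKM in every library.

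**Figure D2:**
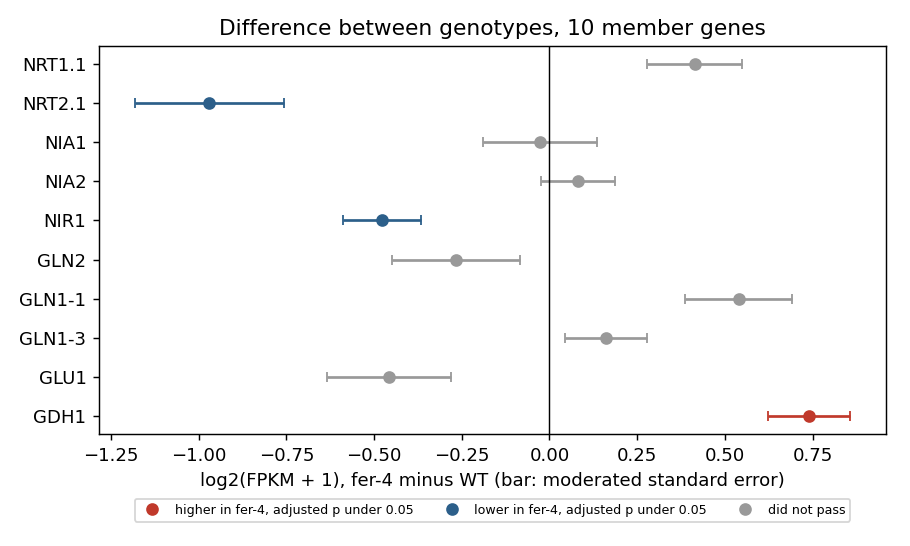
Difference of log2(FPKM + 1), fer-4 minus WT (horizontal axis), for the 10 genes, with limma's moderated standard error as bars; 2 libraries a group. NRT2.1 and NIR1 lie left of 0 and GDH1 right of it with an adjusted p under 0.05, and the other 7 are grey.

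The order of mean level per length was similar in both genotypes. GLN2 was highest in both genotypes, at a mean of 993 FPKM in fer-4 and 1198 FPKM in WT, followed by NIA2, GLU1, NIR1 and NIA1, and NRT2.1 was last. The ranges of NIR1 and NIA1 overlapped in fer-4 (means of 144 and 128 FPKM) and did not in WT. In fer-4 the ranges of NIA1 and GLN1-1 also overlapped, as did those of NRT1.1, GLN1-3 and GDH1 further down, where GDH1 averaged 86.0 FPKM. In WT, GLN1-3, GLN1-1 and NRT1.1 overlapped, and GDH1 at 50.8 FPKM lay apart below them.

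Ratios were taken between genes of the same library. GDH1 over GLU1 was 0.266 and 0.425 in fer-4 and 0.160 and 0.132 in WT. GLN2 over the sum of GLN1-1 and GLN1-3 was 5.56 and 4.26 in fer-4 and 6.06 and 9.32 in WT, and GLN1-1 over GLN1-3 was 1.35 and 1.13 in fer-4 and 1.05 and 0.852 in WT. In these 3 ratios the groups did not overlap (exact two-sided permutation p = 0.333 each, the smallest possible). NIA1 over NIA2 overlapped, at 0.254 and 0.337 in fer-4 and 0.337 and 0.295 in WT (exact p = 0.667). Adjusted over the 5 ratios computed, the lowest p was 0.417.

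Among the other enzymes of assimilation, 2 of 13 tested genes rose and 2 fell, against 23.3% of all genes called, with a median log2 difference of -0.12. The largest difference among the genes of these lists that passed was in ASN1 (AT3G47340, chromosome 3, 17437884 to 17441243, minus strand), an asparagine synthetase gene known to be induced in darkness and low sugar. ASN1 measured 56.7 and 58.5 FPKM in fer-4 and 4.47 and 4.16 FPKM in WT. Libraries of the same genotype were close to each other and the genotypes lay far apart, with a 13.3-fold rise (log2 difference 3.46 ± 0.09 SE, limma, adjusted p = 5.53e-05, at most 0.00218 over the alternatives). The annotation has AT3G47341 on the other strand over ASN1, and the files list no value for it.

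GDH2 (AT5G07440), the partner subunit gene of GDH1, measured 400.0 and 517 FPKM in fer-4 and 163 and 148 FPKM in WT, and rose 2.95-fold (log2 difference 1.55 ± 0.15 SE, limma, adjusted p = 0.00141, at most 0.0235 over the alternatives). GDH1 and GDH2 together summed to 477 and 611 FPKM in fer-4 and 212 and 200 FPKM in WT. The share of GDH2 in that sum was 83.8% and 84.5% in fer-4 and 76.6% and 73.9% in WT. So both subunit genes were higher in both fer-4 libraries than in either WT library.

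ASN2, the asparagine synthetase gene expressed in light, went the other way from ASN1. It measured 71.3 and 86.4 FPKM in fer-4 and 134 and 127 FPKM in WT, and fell by 0.73 on the log2 scale (limma, adjusted p = 0.00839). The 3 asparagine synthetase genes summed to about the same level, 158 ± 13.7 FPKM in fer-4 and 158 ± 5.97 FPKM in WT (SD, n = 2 each), with ASN1 making up 38.1% and 34.8% of it in fer-4 and 2.77% and 2.71% in WT.

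GLN1-2, the most abundant cytosolic glutamine synthetase gene here, measured 284 and 251 FPKM in fer-4 and 446 and 434 FPKM in WT. Both fer-4 libraries lay far below the WT range, and GLN1-2 fell by 0.72 on the log2 scale (limma, adjusted p = 0.00779). Its share of the cytosolic genes GLN1-1 to GLN1-5 was 58.9% and 54.0% in fer-4 and 71.3% and 74.7% in WT, while that of GLN1-1 was 23.2% and 24.1% in fer-4 and 14.3% and 11.3% in WT. The calls of ASN2 and GLN1-2 ended without either WT library, at adjusted p values of up to 0.068 and 0.0582.

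**Figure D3:**
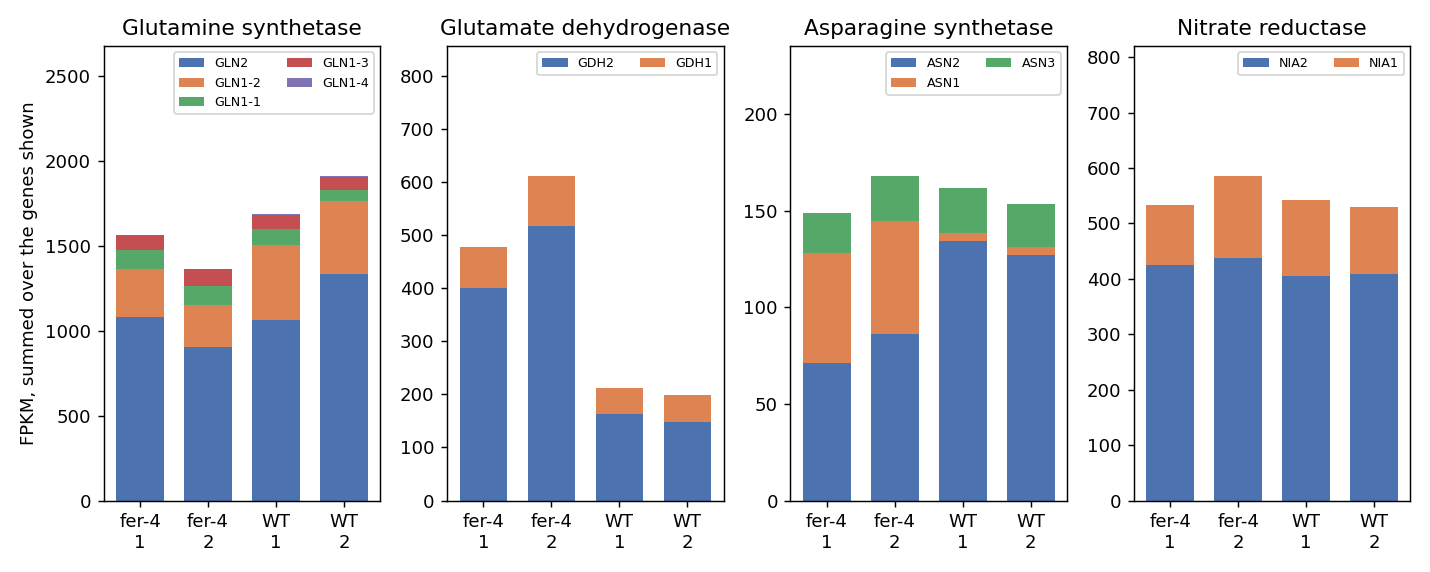
Stacked bars of FPKM (vertical axes from 0) of the genes of 4 enzymes in each of the 2 fer-4 and 2 WT libraries. ASN1 (orange in the third panel) makes up 38.1% and 34.8% of the asparagine synthetase sum in fer-4 and 2.77% and 2.71% in WT, GDH2 is higher in fer-4, and the nitrate reductase bars are of like height.

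The promoters of the 3 members that passed are shown with a G-box and a GATA element in view. That of ASN1 is added for its difference, the largest that passed in these lists. The promoters of GDH2, GLN1-2 and ASN2, which also passed, are not shown and held neither motif. A G-box (CACGTG) is a site that bZIP and bHLH factors can bind, and GATAAG one that GATA factors can bind. Each sequence runs from 270 bases before to 30 after the transcript start of the RefSeq annotation, read 5′ to 3′ on the gene's strand from the TAIR10.1 genome, with both motifs, on either strand, in capitals (CTTATC is GATAAG on the other strand). The motifs overlap nowhere in these 4 windows.
ASN1, chr3:17441402-17441701, minus strand: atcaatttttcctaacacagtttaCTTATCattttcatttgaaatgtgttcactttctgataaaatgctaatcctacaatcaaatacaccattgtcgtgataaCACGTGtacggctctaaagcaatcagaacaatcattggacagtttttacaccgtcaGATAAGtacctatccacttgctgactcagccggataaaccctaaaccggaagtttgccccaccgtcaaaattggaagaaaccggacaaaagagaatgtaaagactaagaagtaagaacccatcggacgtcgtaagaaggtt
GDH1, chr5:6005765-6006064, plus strand: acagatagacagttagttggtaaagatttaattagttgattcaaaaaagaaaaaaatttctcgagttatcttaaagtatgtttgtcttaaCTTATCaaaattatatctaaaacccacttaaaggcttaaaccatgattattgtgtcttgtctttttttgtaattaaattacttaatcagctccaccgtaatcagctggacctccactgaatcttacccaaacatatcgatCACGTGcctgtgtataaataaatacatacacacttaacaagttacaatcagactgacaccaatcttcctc
NRT2.1, chr1:2523753-2524052, plus strand: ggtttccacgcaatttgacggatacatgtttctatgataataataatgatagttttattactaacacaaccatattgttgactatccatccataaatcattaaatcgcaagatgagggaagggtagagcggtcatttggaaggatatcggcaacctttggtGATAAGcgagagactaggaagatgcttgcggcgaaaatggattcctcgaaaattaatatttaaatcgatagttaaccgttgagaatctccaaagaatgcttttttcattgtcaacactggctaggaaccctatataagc
NIR1, chr2:6810125-6810424, plus strand: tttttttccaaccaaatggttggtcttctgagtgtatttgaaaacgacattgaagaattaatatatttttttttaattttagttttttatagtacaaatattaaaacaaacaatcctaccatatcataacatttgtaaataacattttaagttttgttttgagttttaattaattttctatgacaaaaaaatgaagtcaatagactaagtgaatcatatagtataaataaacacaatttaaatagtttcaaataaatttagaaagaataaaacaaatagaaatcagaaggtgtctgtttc

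A G-box began 167 bases before the start in ASN1 and 40 bases before it in GDH1. In BT1, described below, it began 2 bases before the start and so spanned it. Of the 10 genes called higher among the members and the lists below, 3 held a G-box (ASN1, GDH1 and BT1) and 7 did not, GDH2, BT2 and TGA1 among them. Of the 11 called lower, 0 held one, while CBL9, which was not called, and GLN1-5, which was not tested, did. With 7.51% of all protein-coding promoters holding a G-box, 0 of 11 tells little. NRT2.1 held GATAAG 109 bases before the start, GDH1 held it 180 bases before and ASN1 at 246 and 111 bases before. The NIR1 window held neither. Of the 10 promoters, 1 held a G-box and 2 held GATAAG, against 7.51% and 14.8% of 27443 protein-coding promoters of the same length. These are matches of letters and say nothing of binding, and both motifs were picked with the values known. The locus in the deposited files starts 188 bases further downstream for ASN1, 85 for BT1, 81 for NIR1, 53 for NRT2.1 and 4 for GDH1. Distances therefore depend on the annotation.

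Of 12 tested genes that supply cofactors and reductant to both reductases, 4 fell and 8 did not pass. Of all genes, 23.3% were called in either direction and 9.00% lower. The median log2 difference of the 12 was -0.13. All 4 that fell were among the 7 genes of siroheme and reductant supply, which serve nitrite reductase, and the median of the 7 was -0.35. Of the 5 molybdenum cofactor genes, which serve nitrate reductase, 0 passed by limma, against 23.3% of all genes, and their median was 0.02. The split of the list was not planned, and a difference between its parts was not tested. UPM1, which makes the precursor of siroheme, measured 212 and 172 FPKM in fer-4 and 298 and 324 FPKM in WT (log2 difference -0.70 ± 0.13 SE, limma, adjusted p = 0.0148). RFNR2, a root-type ferredoxin reductase gene, measured 54.4 and 41.9 FPKM in fer-4 and 98.5 and 79.8 FPKM in WT (-0.88 ± 0.16 SE, limma, adjusted p = 0.0127). G6PD3, a plastid glucose-6-phosphate dehydrogenase gene, measured 18.9 and 17.1 FPKM in fer-4 and 37.2 and 28.1 FPKM in WT (-0.81 ± 0.14 SE, limma, adjusted p = 0.0121).

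In these 3 genes, as in NIR1, both fer-4 libraries lay below both WT libraries. The genotypes did not overlap in 66.1% of all tested genes, and these 3 were named because they fell. The fourth, G6PD2, fell by 0.35 on the log2 scale (limma, adjusted p = 0.0449), and lost its call when any 1 of the 4 libraries was left out. It is named after its values were seen, as are EXPA7, TIP2-3, LBD37, HRS1, NRT2.3, NRT2.4 and NRT2.5. G6PD3 overlaps AT1G24290 on the other strand, which measured at most 3.66 FPKM. Among the molybdenum cofactor genes, CNX2 measured 23.2 and 25.9 FPKM in fer-4 and 20.9 and 19.8 FPKM in WT (limma, adjusted p = 0.105). Without WT replicate 1, 0 of the 12 passed by limma, with log2 differences of -0.62 for G6PD3 (adjusted p = 0.0551), -0.73 for RFNR2 (0.0847) and -0.76 for UPM1 (0.0685). UPM1 also lost its call without fer-4 replicate 2 (0.0549) and without WT replicate 2 (0.105), where G6PD3 and RFNR2 passed.

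Of 16 tested genes of nitrate transport beside NRT1.1 and NRT2.1, 2 rose and 1 fell, below the 23.3% of all genes called. SLAH3, an anion channel gene that passes nitrate, fell to 20.9 and 19.7 FPKM in fer-4, against 32.1 and 32.5 FPKM in WT (limma, adjusted p = 0.00416, at most 0.0472 over the alternatives). NPF4.6, a nitrate and abscisic acid transporter gene, measured 31.6 and 32.4 FPKM in fer-4 and 25.2 and 23.0 FPKM in WT and rose by 0.39 on the log2 scale (limma, adjusted p = 0.0256), a call that ended when fer-4 replicate 2 or either WT library was left out.

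NRT3.1, the partner protein that NRT2.1 needs at the membrane, measured 17.6 and 18.2 FPKM in fer-4 and 18.5 and 14.3 FPKM in WT (limma, adjusted p = 0.53). NRT2.2, a neighbour of NRT2.1 with a closely similar sequence, was listed in 1 library, WT replicate 1, at 0.155 FPKM. The low-level gene NRT2.6 rose to 1.78 and 1.85 FPKM in fer-4, against 0.793 and 0.720 FPKM in WT (limma, adjusted p = 0.0296), and lost its call when any 1 of the 4 libraries was left out. NRT2.6 reached the mean of 1 FPKM required for testing only through fer-4. NRT2.3, whose mean fell short of it, was not tested and measured 1.18 and 1.17 FPKM in fer-4 and 0.436 and 0.529 FPKM in WT. NRT2.4 and NRT2.5, also not tested, measured at most 0.0703 and 0.206 FPKM, with lower means in fer-4. NPF7.2, which unloads nitrate from the xylem, measured 9.16 and 23.8 FPKM in fer-4 and 7.81 and 5.20 FPKM in WT and did not pass (limma, adjusted p = 0.107). Its fer-4 libraries differed more from each other than the lower of them did from WT, and it passed without fer-4 replicate 1.

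Of 4 tested ammonium transporter genes 1 fell, near the 23.3% of all genes called in either direction (9.00% lower). AMT1-2 fell to 12.8 and 12.1 FPKM in fer-4, against 19.2 and 17.5 FPKM in WT (log2 difference -0.53 ± 0.10 SE, limma, adjusted p = 0.0132), and lost its call without either WT library (at most 0.0949). AMT1-1, the most abundant, measured 112 and 76.0 FPKM in fer-4 and 101 and 108 FPKM in WT, and its groups overlapped, though it passed without fer-4 replicate 1 (0.0376).

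Among 26 tested genes of nitrate signalling, 5 rose and 1 fell, close to the 23.3% of all genes called. BT1 and BT2 encode BTB and TAZ domain proteins, and BT2 is known to repress NRT2 genes and nitrate use. BT1 measured 52.6 and 47.6 FPKM in fer-4 and 20.8 and 17.6 FPKM in WT, and rose by 1.34 ± 0.11 (SE) on the log2 scale (limma, adjusted p = 0.000838). BT2 measured 231 and 205 FPKM in fer-4 and 119 and 121 FPKM in WT, and rose by 0.86 ± 0.10 (SE, limma, adjusted p = 0.00278). In both the genotypes lay far apart beside the spread within them, and both passed under every alternative tried, at adjusted p values of up to 0.0121 and 0.0332.

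TGA1, a bZIP factor gene known to promote NRT2.1 expression in roots, measured 55.5 and 56.1 FPKM in fer-4 and 34.2 and 31.8 FPKM in WT (log2 difference 0.74 ± 0.08 SE, limma, adjusted p = 0.00249, at most 0.0327 over the alternatives). So TGA1 rose where NRT2.1 fell. LBD37, a repressor of nitrogen genes, and HRS1, a repressor of the NIGT1 group that binds NRT2 promoters, rose by 0.52 and 0.50 (limma, adjusted p = 0.0249 and 0.0419). Both lost their calls without either WT library, LBD37 also without fer-4 replicate 1 and HRS1 without fer-4 replicate 2. The NIGT1 genes HHO1, HHO2 and HHO3 were left out because their symbols did not match, so HRS1 does not stand for the group. CPK32, a calcium-dependent kinase of nitrate signalling, fell by 0.39 (limma, adjusted p = 0.044) and lost its call when any 1 of the 4 libraries was left out. NLP7, the main nitrate-responsive activator, measured 24.1 and 22.5 FPKM in fer-4 and 19.8 and 20.0 FPKM in WT and did not pass (limma, adjusted p = 0.129).

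**Figure D4:**
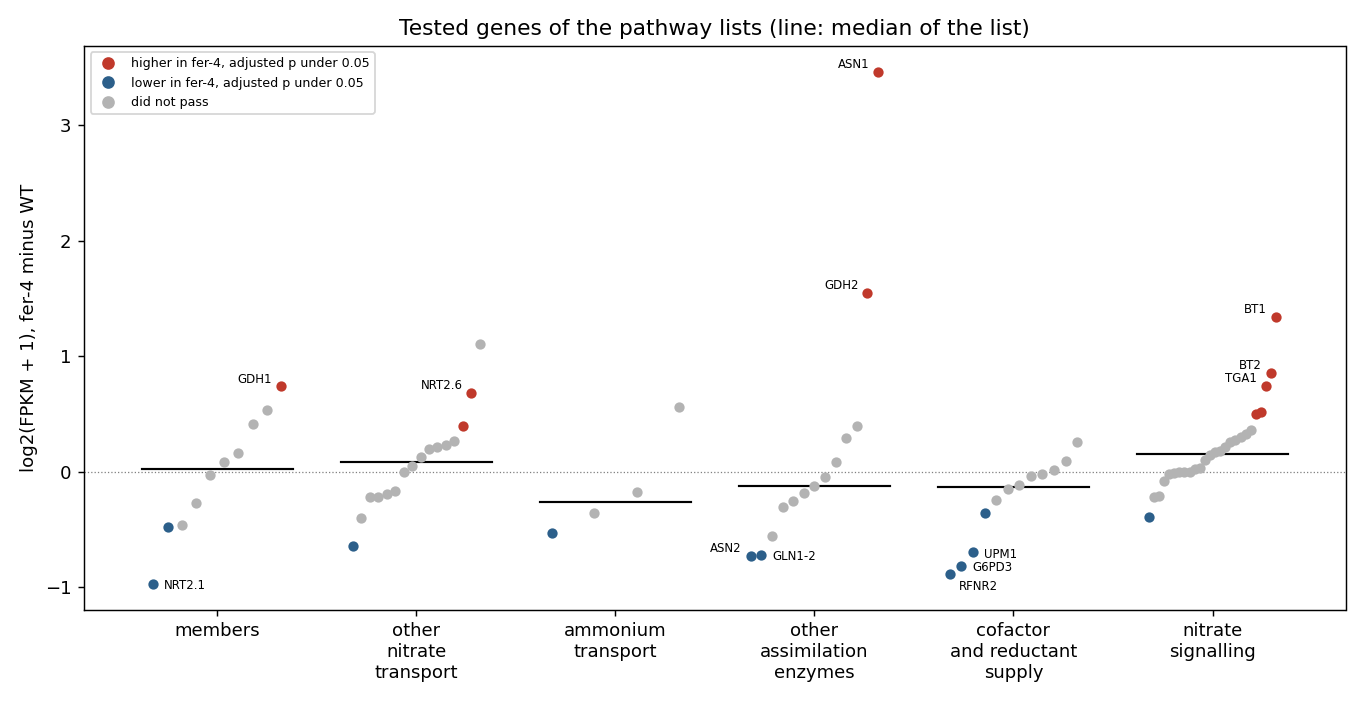
Difference of log2(FPKM + 1), fer-4 minus WT (vertical axis), for the tested genes of the 10 members and of 5 lists of other pathway genes; each point is a gene and black lines are list medians. ASN1, GDH2, BT1 and BT2 stand highest among the genes that passed, and RFNR2, G6PD3 and UPM1 lie lowest in their list.

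Of the 21 genes called among the members and these lists, 6 passed under every alternative that tested them: ASN1, GDH2, BT1, BT2, TGA1 and SLAH3. The share of all called genes that passed under every alternative was not computed. Leaving out either WT library ended most of the 21 calls, and the number of calls over all tested genes fell as well. Under the alternatives run, 0 of the 21 changed sign. In each of the 21 the genotypes did not overlap, so leaving out a library could not reverse the sign. The filters and replicate blocks left the difference itself as it was. The count of sign changes therefore says little of how stable these differences are. All 3 called members are among those that lost a call.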

How the data were processed

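RNA of whole seedlings was sequenced as mRNA libraries, 2 of fer-4 and 2 of WT. The deposited files hold 1 FPKM value per gene and library, made by the authors; StringTie 1.3.3, HISAT2 2.0.5 and CASAVA are named in the submitters' processing notes. No annotation release or strand setting is stated there. A gene not listed in a library was taken as 0. Depth was estimated from single-exon genes, as the median of FPKM times length within a fixed window taken to stand for 1 fragment. That window bounds the estimate, which is approximate. Genes averaging 1 FPKM or more over the libraries were tested as log2(FPKM + 1) with limma 3.58.1 in R 4.3.3, checked on simulated data, with fer-4 minus WT and Benjamini-Hochberg adjustment. A pseudocount of 1 understates the change of low genes. Members and lists were chosen with earlier results of these data known, and 8 list genes were dropped because their symbol was in neither the files nor the annotation. Among these, HHO1, HHO2, HHO3, NRG2, CEPD1, CEPD2 and CNX6 have values under their identifiers, which were not used. Named were all members, up to 3 largest rises and 3 largest falls per list, others for their role with values, FER, and the 3 genes nearest NRT2.1. Alternatives were another pseudocount, filters, scalings, replicate blocks and leaving out each library. Locus positions are those of the files, on TAIR10 per the labels, with 1 added to starts counted from 0, and promoters are from the RefSeq TAIR10.1 genome.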

Additional observations from a re-analysis of the deposited data

How the results depend on the processing

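Leaving out each library in turn gave 1688 to 4417 called genes over all genes, 1 to 3 among the 10 members, 1 to 3 in other nitrate transport, 0 to 3 in ammonium transport, 2 to 7 in other assimilation enzymes, 0 to 3 in cofactor and reductant supply and 3 to 6 in nitrate signalling. The lowest total was without WT replicate 2, and 1905 genes were called without WT replicate 1. Replicate numbers are not said to pair the samples, and the numbers' deviations correlated at -0.22. With the numbers as a replicate block, 3772 genes, 3 members and 1 nitrate transport gene were called. That block ended the calls of NIR1 (adjusted p = 0.0638), NRT2.6 (0.0606), NPF4.6 (0.0572), G6PD2 (0.0892), HRS1 (0.0559) and CPK32 (0.0989), and GLN1-1 passed in it (0.0492). With the numbers crossed, an alternative chosen after seeing the data, 5681 genes, 5 members, 5 nitrate transport genes, 2 ammonium transport genes and 8 other assimilation genes were called. Quantile normalization called 2 ammonium transport genes, moved the median of all genes by -0.07 and turned GLN2 to a log2 difference of 0.028. NIA1 turned to 0.20 without fer-4 replicate 1 and to 0.06 without WT replicate 1, within -0.25 to 0.20 over the libraries left out. The cause was not tested. Of the other single-gene values under alternatives, 284 kept direction and side of the threshold, 52 lost the call and 7 gained it. Calls also ended for G6PD2, HRS1 and CPK32 with no filter, for NRT2.6 and HRS1 with quantile normalization and for G6PD2 with scaled sums. Among the 10 members, depth limits NRT2.1 most.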
